A study of Mus musculus with 2 samples.

Results

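The Hox cluster microRNA genes are hairpins that lie among the Hox genes of the mouse. They were chosen by symbol and not by any measured value, though earlier results of these data were known. The members are Mir10a, Mir10b, Mir196a-1, Mir196a-2, Mir196b and Mir615, 6 of the 2202 microRNA genes counted. They were measured by microRNA-seq, which sequences the small RNA of a sample, in 2 libraries of hippocampal tissue. The mice were adult males of 8 to 10 months with the strain label 5xFAD/CAST, so the design held 1 group and no control, other strain or other age. 5xFAD is a transgenic Alzheimer model in which the Thy1 promoter drives the transgenes in neurons, and CAST is a wild-derived strain; the labels do not give the transgene status of each animal. The libraries are numbered as biological replicates 1 and 2 but share 1 donor record, so separate animals are not established, and p-values below compare these 2 libraries and not conditions.

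Hox genes encode transcription factors that give cells of the embryo their position from head to tail. In the mouse their expression is known to stop in the hindbrain, so that the forebrain, from which the hippocampus arises, develops without them. The microRNAs of the clusters sit next to particular Hox genes and are known to be transcribed in similar domains. miR-10 and miR-196 are both known to repress Hox mRNAs, and miR-196 does so by cleaving the mRNA of Hoxb8.

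The mature sequences show how the members relate to each other, and their differences decide which reads could be assigned to 1 gene. RefSeq (GRCm38.p6) gave mature sequences for all 6 genes; the seed, bases 2 to 8, is in capitals.
miR-10a-5p: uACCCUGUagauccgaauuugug
miR-10b-5p: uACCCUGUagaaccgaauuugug
miR-196a-5p: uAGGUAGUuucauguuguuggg
miR-196b-5p: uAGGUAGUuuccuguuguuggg
miR-615-3p: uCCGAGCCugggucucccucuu
Counted from 1 at the 5′ end, miR-10a and miR-10b are identical at 22 of 23 bases and differ by U12A, with the miR-10a base first. miR-196a and miR-196b are identical at 21 of 22 bases and differ by A12C, with the miR-196a base first. Both differences lie outside the seed, so each family has 1 seed. Among the 1679 mature names of the table, the seed of miR-10 was held by miR-10a and miR-10b alone, and the seed of miR-615-3p by that microRNA alone.

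The hairpins of Mir10a and Mir10b are shown with both mature arms in capitals, because each deposited count sums the arms of a hairpin.
Mir10a: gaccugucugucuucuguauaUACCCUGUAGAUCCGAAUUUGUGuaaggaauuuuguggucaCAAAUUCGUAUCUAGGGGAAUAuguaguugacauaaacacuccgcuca
Mir10b: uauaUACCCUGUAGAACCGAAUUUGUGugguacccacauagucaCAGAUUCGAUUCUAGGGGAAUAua
The longest stretch that the 2 hairpins share is 15 bases. Neither shares 20 bases with any other annotated microRNA gene at another place, so a full-length read of either arm fits 1 annotated gene without mismatch. The 5′ arms differ by 1 base, and whether reads with 1 mismatch went to the other gene could not be checked.

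The Mir196a-1 and Mir196a-2 hairpins are a different case. Here the capitals mark the longest shared stretch of 22 bases, which is exactly the mature miR-196a-5p.
Mir196a-1: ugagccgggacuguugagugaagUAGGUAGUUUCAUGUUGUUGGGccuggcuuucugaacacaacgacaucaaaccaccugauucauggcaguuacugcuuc
Mir196a-2: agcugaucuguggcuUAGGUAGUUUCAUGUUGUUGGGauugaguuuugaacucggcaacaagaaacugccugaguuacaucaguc
A read of that arm alone fits both genes. Reads with more than 1 possible place are not assigned to a gene in these tables, and they made up 41.6% of all reads in replicate 1 and 38.2% in replicate 2. The counts of the 2 Mir196a genes are therefore uncertain and can understate miR-196a. Their 3′ arms have 5 of 22 bases in common position by position and can be told apart, and Mir196b shares at most 12 bases with either hairpin.

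The annotation (GENCODE M21, mm10) places the members in all 4 Hox clusters. In HoxB, Mir10a (chromosome 11, 96317165 to 96317274, plus strand) lies between genes, 0.993 kb before Hoxb4. Mir196a-1 (chromosome 11, 96265164 to 96265265, plus strand) also lies between genes, 6.19 kb before Hoxb9. In HoxD, Mir10b (chromosome 2, 74726070 to 74726137, plus strand) lies in introns of Hoxd3 and Hoxd4. In HoxC, Mir615 (chromosome 15, 103014910 to 103015001, plus strand) lies in an intron of Hoxc5. Mir196a-2 (chromosome 15, 102973350 to 102973434, plus strand) lies in an intron of a noncoding transcript of Hoxc5, between Hoxc10 and Hoxc9. In HoxA, Mir196b (chromosome 6, 52230081 to 52230165, minus strand) lies in an exon of noncoding transcripts of Hoxa9, 1.03 kb from Hoxa10. All 6 are on the strand of their neighbouring Hox genes. The only other microRNA gene counted inside a cluster, Gm44463 in HoxD, had 0 reads in both libraries.

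**Figure D1:**
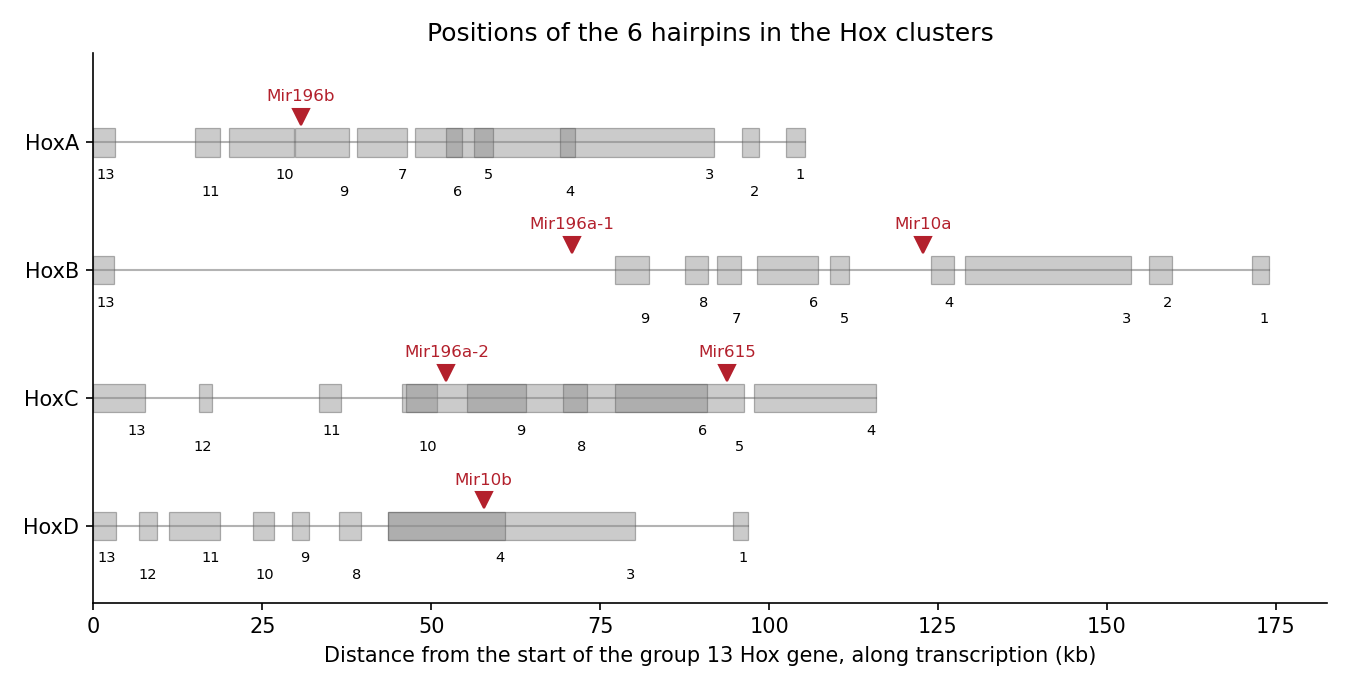
Map of the 4 Hox clusters drawn to scale, with the distance in kb from the start of the group 13 gene on the x axis, grey boxes for Hox genes numbered by group (darker where annotated genes overlap) and red triangles for the 6 hairpins. Mir10a and Mir10b lie at group 4, Mir615 at group 5, and the miR-196 genes on the posterior side of the clusters, at groups 9 and 10 in HoxA and HoxC and between groups 13 and 9 in HoxB.

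A known target site of miR-196a lies in the HoxB cluster, as Mir196a-1 does. The 87 annotated transcripts of the 39 Hox genes were searched for windows that complement a member's mature sequence with at most 2 mismatches, on the strand of the transcript. Hoxb8 alone held one, for miR-196a with 1 mismatch and for miR-196b with 2. It is the known cleavage site in the 3′ untranslated region, at chr11:96284888-96284909 on the plus strand, 19.6 kb from Mir196a-1. In the DNA letters of GENCODE M21, capitals mark bases that complement miR-196a. The lower case g stands opposite the U at position 5 of the microRNA, a G:U pair that the search counted as a mismatch.
Hoxb8 site: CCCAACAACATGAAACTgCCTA
These libraries hold no mRNA, so no effect on Hoxb8 was measured.

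Replicate 1 held 3421977 reads assigned to microRNA genes and replicate 2 held 2820468, and levels are given in CPM, counts scaled to a fixed total of assigned reads in each library. One read is worth 0.292 CPM in replicate 1 and 0.355 CPM in replicate 2, and a gene with no read could still stand at 0.877 CPM in replicate 1 or 1.06 CPM in replicate 2, the value of 3 reads. Intervals are exact Clopper-Pearson 95% intervals and cover counting error only. A microRNA read covers a whole mature molecule, so CPM was not divided by length; per 100 bases of hairpin the members kept their order in both libraries. Detection required 10 or more reads in each library, which 389 genes had. Of the listed neuronal microRNAs, Mir132 had 12751 ± 1353 CPM and Mir137 had 6409 ± 598 CPM (SD, n = 2). Between them stood Mir128-1 with 7201 ± 219 CPM, which shares sequence with another gene and is uncertain. These genes mark neurons and do not check which brain region was taken. Mir124a-2 and Mir124a-3, copies of a defining neuronal microRNA, had 0 reads in both libraries, and both share sequence with a further copy.

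The 6 Hox cluster microRNA genes together had 785 reads in replicate 1 and 357 in replicate 2, which is 0.0229% (95% interval 0.0214 to 0.0246) and 0.0127% (0.0114 to 0.0140) of assigned reads. Mir10a and Mir10b held 749 and 339 of those reads. All 6 members had at least 1 read in replicate 1 and 5 of 6 in replicate 2, but only Mir10a, Mir10b and Mir615 passed the detection minimum. In replicate 2, Mir196a-1 had no read.

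Mir10a, the HoxB member of the miR-10 family, was the most abundant member. It had 526 reads in replicate 1 and 275 in replicate 2, or 154 CPM (141 to 167) and 97.5 CPM (86.3 to 110). The median detected gene had 86.2 CPM in replicate 1 and 107 CPM in replicate 2, so Mir10a lay above the median of the first library and below that of the second. By mean CPM, 186 of the 389 detected genes were more abundant.

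Mir10b, the HoxD copy of the family, came next in both libraries. It had 223 reads in replicate 1 and 64 in replicate 2, or 65.2 CPM (56.9 to 74.3) and 22.7 CPM (17.5 to 29.0). It stood below the median detected gene in both libraries, with 244 detected genes above it by mean CPM. Its interval overlapped that of Mir10a in neither library. Between libraries, Mir10a averaged 126 ± 39.7 CPM and Mir10b 43.9 ± 30.0 CPM (SD, n = 2).

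Mir615, the microRNA of the Hoxc5 intron, was close to the lower limit of detection. It had 16 reads in replicate 1 and 11 in replicate 2, or 4.68 CPM (2.67 to 7.59) and 3.90 CPM (1.95 to 6.98). The libraries overlapped within counting error, and 4 detected genes had a lower mean CPM.

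The miR-196 genes were the lowest members. Mir196b had 12 reads in replicate 1 and 6 in replicate 2, or 3.51 CPM (1.81 to 6.13) and 2.13 CPM (0.781 to 4.63). Mir196a-1 had 6 reads in replicate 1 and 0 in replicate 2, and Mir196a-2 had 2 reads in replicate 1 and 1 in replicate 2. The 3 genes summed to 5.84 CPM in replicate 1 and 2.48 CPM in replicate 2. From Mir615 down, the intervals of neighbours in the order overlapped in both libraries, so neighbours among the 4 lowest members were not resolved. In replicate 1, Mir615 (2.67 to 7.59 CPM) did lie apart from Mir196a-2 (0.0708 to 2.11 CPM). In replicate 2, Mir615 (1.95 to 6.98 CPM) lay apart from Mir196a-1 (0 to 1.31 CPM). The step from Mir10b to Mir615 was resolved in both.

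**Figure D2:**
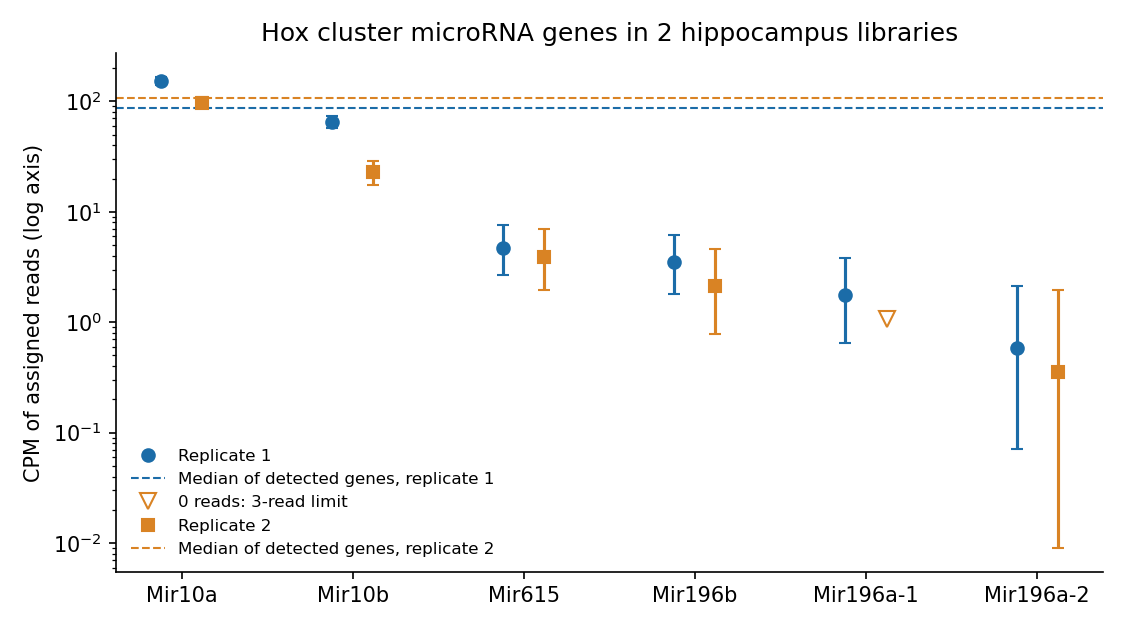
CPM of assigned reads on a log axis for each member in replicate 1 (circles) and replicate 2 (squares), with exact 95% intervals; the open triangle marks the 3-read limit of 1.06 CPM for Mir196a-1, which had 0 reads in replicate 2 and an exact interval reaching 1.31 CPM, and dashed lines mark the median detected gene. Mir10a and Mir10b lie above the other 4 members in both libraries, and the intervals of neighbours overlap from Mir615 to Mir196a-2.

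Set against the map of the clusters, the miR-10 genes at group 4 stood above the 4 members at more posterior places in both libraries. Among those 4, the intervals of Mir615 at group 5 and Mir196b overlapped in both libraries. Mir615 lay apart from Mir196a-2 in replicate 1 only and from Mir196a-1 in replicate 2 only. In replicate 1 the 3 miR-196 genes summed to more than Mir615. This describes 6 genes in 2 libraries. The counts of the 2 Mir196a genes leave out reads of their shared arm, while Mir196b, which has no such copy, stood at 2.82 ± 0.98 CPM (SD, n = 2).

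Relatives of the Hox cluster microRNAs that lie outside the clusters were abundant in the same libraries. miR-99 and miR-100 belong to the miR-10 superfamily, and the sequence of miR-99a shows the kinship and the change of seed.
miR-99a-5p: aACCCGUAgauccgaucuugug
miR-100-5p: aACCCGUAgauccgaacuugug
miR-10a shares a stretch of 10 bases with miR-99a and of 11 with miR-100, a stretch that starts with the last bases of the miR-10a seed, while the seeds differ. Mir99a had 22391 CPM in replicate 1 and 20794 CPM in replicate 2, Mir99b 7555 and 5158 CPM, and Mir100 4466 and 3827 CPM. The 6 listed superfamily genes outside the clusters, which also include Mir125a, Mir125b-1 and Mir125b-2, summed to 42193 CPM in replicate 1 and 45657 CPM in replicate 2. Mir125b-1 and Mir125b-2 share sequence with other genes, so their counts are uncertain. Mir10a and Mir10b together had 219 CPM in replicate 1 and 120 CPM in replicate 2, so the miR-10 seed was scarce beside its relatives in both libraries.

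A like contrast held for the letters of the miR-196 seed. The motif AGGUAGU also occurs at bases 3 to 9 of 9 other mature microRNAs, which are let-7a, let-7b, let-7c, let-7d, let-7f, let-7g, let-7i, miR-98 and miR-1961.
let-7b-5p: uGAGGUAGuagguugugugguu
The let-7 family acts in developmental timing and is offset from miR-196 by 1 base, so its seed is another one. For these microRNAs, 11 genes summed to 324612 CPM in replicate 1 and 307698 CPM in replicate 2. This sum leaves out Mirlet7a-2, a further let-7a gene with 132 CPM in replicate 1 and 187 CPM in replicate 2. Each count sums both arms of a hairpin, so the sum also holds reads of arms without the motif. Reads that fit more than 1 let-7 gene are not in it.

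Between the libraries, the miR-10 genes were both higher in replicate 1. On counts scaled by TMM, a normalization that allows for composition, Mir10a was 1.69-fold higher, with a log2 ratio of replicate 1 over replicate 2 of 0.76 (95% interval 0.54 to 0.97; exact binomial test, Benjamini-Hochberg adjusted p = 1.78e-12). Mir10b was 3.08-fold higher, with a log2 ratio of 1.62 (1.21 to 2.05; exact binomial test, adjusted p = 2.73e-17). Mir615 had a log2 ratio of 0.36 (-0.84 to 1.61; exact binomial test, adjusted p = 0.63), an interval that spans a decrease and an increase. Of the 3 detected members, 2 were thus called, both higher in replicate 1. In the same test 67.6% of the 389 detected genes were called in either direction. The share of members called in either direction stands close to that. For calls higher in replicate 1 the share of detected genes was 33.7%, which the members exceeded. With 3 detected members, this difference in share was not tested.

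Mir10b stood higher among the ratios of all detected genes than Mir10a. The median log2 ratio over the detected genes was -0.053, and the middle of the distribution, between the lower and upper quartile, ran from -0.63 to 0.40. Mir10a exceeded the upper quartile, with 56 detected genes above it. Mir10b had 18 detected genes above it and lay near the 95th percentile of 1.60. With 1 library on each side, these tests cover counting error and not the spread between animals.

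**Figure D3:**
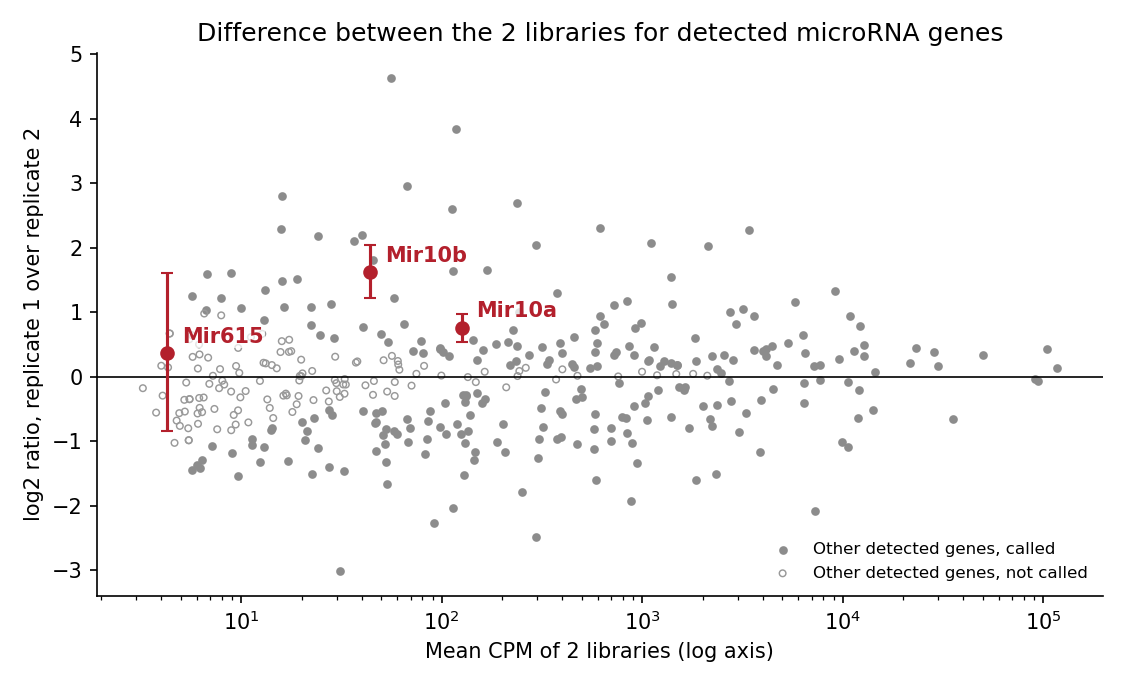
Log2 ratio of replicate 1 over replicate 2 (TMM-scaled counts) against the mean CPM on a log axis, for the 389 detected genes; filled points were called by the exact binomial test, and red points with exact 95% intervals are the 3 detected members. Mir10b at 1.62 has 18 detected genes above it, Mir10a at 0.76 has 56, and the interval of Mir615 crosses 0.

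The hairpin GC content of the members is given beside these ratios because the ratio varied with it among the other detected genes. The hairpins of Mir10a and Mir10b have a GC content of 40.0% and 39.7%. The median log2 ratio was 0.20 over the 82 other detected genes within 5 percentage points of Mir10a and 0.21 over the 79 within 5 points of Mir10b. Relative to those medians, Mir10a stood 0.55 and Mir10b 1.41 higher in replicate 1. Mir615 has a GC content of 69.6%, where the median of 34 genes was -0.57, and its own ratio stood 0.93 above that median. The part of GC content in the difference was not tested further.

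The balance between the 2 miR-10 genes also differed between the libraries. This comparison needs no scaling, because both counts come from the same library. It does rest on telling apart reads of 5′ arms that differ by 1 base, which could not be checked. Mir10a made up 70.2% of the 749 miR-10 reads in replicate 1 (95% interval 66.8 to 73.5) and 81.1% of the 339 in replicate 2 (76.5 to 85.1). The share was 10.9 percentage points lower in replicate 1, with an odds ratio of 0.55 (95% interval 0.39 to 0.76; two-sided Fisher's exact test, p = 0.00015, 1 comparison). In reads, there were 2.36 of Mir10a for each of Mir10b in replicate 1 and 4.30 in replicate 2. The test counts reads, so it shows that these libraries differ beyond counting error and not that the animals do.

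**Figure D4:**
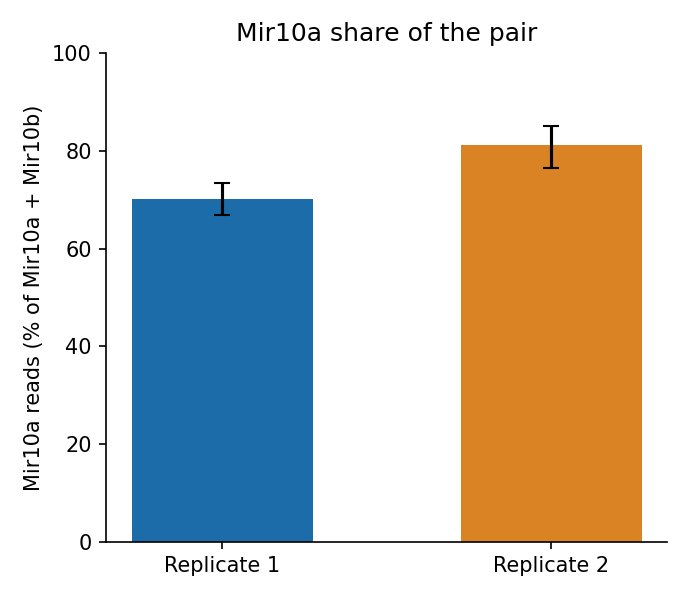
Reads of Mir10a as a percentage of the reads of Mir10a and Mir10b in each library, with exact 95% intervals. The bars stand at 70.2% in replicate 1 and 81.1% in replicate 2, and the intervals do not overlap.

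Markers of several cell types outside the neuronal tissue were also higher in replicate 1, and their part in the miR-10 difference was not tested. In bulk tissue, fewer cells of a type and less RNA per cell cannot be told apart. The epithelial list, made of miR-200 family genes and Mir205, summed to 374 CPM in replicate 1 and 79.4 CPM in replicate 2, with the 4 detected of its 6 measured genes called higher and a median log2 ratio of 2.24, against -0.053 over all detected genes. The mural list, Mir143 and Mir145a of smooth muscle and pericytes, summed to 13800 CPM in replicate 1 and 5693 CPM in replicate 2, with both called higher and a median log2 ratio of 1.81. The choroid plexus and ependyma list summed to 3416 CPM in replicate 1 and 1638 CPM in replicate 2. Of its 7 measured genes 3 were called higher in replicate 1 and 1 lower, the median log2 ratio was 0.60, and Mir449b was at 0 in both libraries. Mir34c led this list, with 2045 CPM in replicate 1 and 750 CPM in replicate 2.

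The other lists had smaller differences in their sums. The endothelial list, in which Mir126b had 0 reads in replicate 1 and 2 in replicate 2, summed to 7871 CPM in replicate 1 and 7465 CPM in replicate 2. The microglia and leukocyte list summed to 5207 CPM in replicate 1 and 4484 CPM in replicate 2, with 5 of 6 measured genes called higher in replicate 1 and none lower, at a median log2 ratio of 0.46. The red blood cell list summed to 47.6 CPM in replicate 1 and 59.9 CPM in replicate 2. The oligodendrocyte list summed to 5027 CPM in replicate 1 and 6671 CPM in replicate 2, but its 2 detected genes split, with Mir219a-2, which shares sequence with other genes and is uncertain, called higher in replicate 1 (log2 ratio 0.26) and Mir338 called lower (-0.87). The neuronal list summed to 33321 CPM in replicate 1 and 34455 CPM in replicate 2, with 4 genes called higher in replicate 1 and 6 lower, at a median log2 ratio of -0.09. All genes of the neuronal list but Mir137, Mir132 and Mir212 share sequence with other genes, so their counts are uncertain. The striated muscle list summed to 37.4 CPM in replicate 1 and 26.2 CPM in replicate 2, where Mir1a-1, Mir133a-2 and Mir133b were at 0 and share sequence with copies. Mir122, the liver marker, had 30.7 CPM in replicate 1 and 35.8 CPM in replicate 2. Of the 6 superfamily relatives outside the Hox clusters, 5 were called higher in replicate 1, with log2 ratios from 0.20 for Mir125b-2 to 0.65 for Mir99b. Mir125a was called lower at -1.09. Mir125b-1 and Mir125b-2 share sequence with 1 other gene each and are uncertain. Mir10b at 1.62 exceeded all 6 relatives and Mir10a at 0.76 did too. These differences between genes were not tested.

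**Figure D5:**
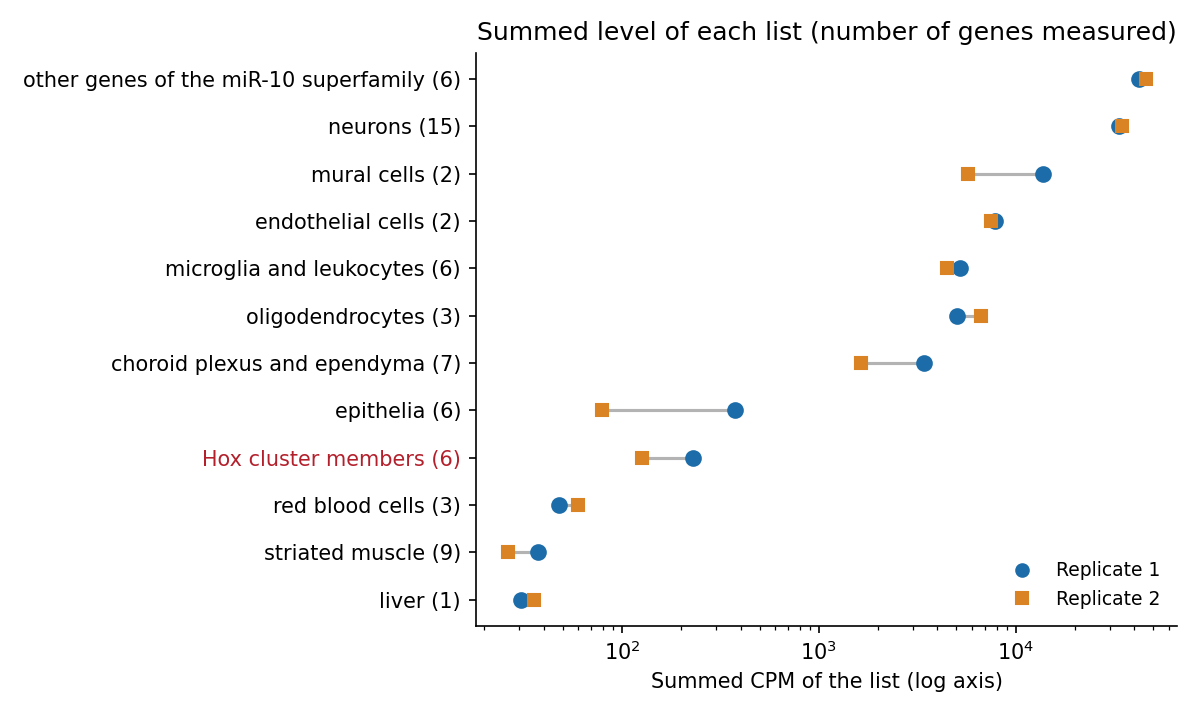
Summed CPM on a log axis of the Hox cluster members (red label) and of each marker list in replicate 1 (circles) and replicate 2 (squares), with the number of measured genes in brackets. The Hox cluster members stand at 229 CPM in replicate 1 and 127 CPM in replicate 2, and the widest gaps toward replicate 1 are those of the epithelial, mural, choroid plexus and Hox lists.

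The detected genes nearest to each detected member were found by the distance in mean log2(CPM + 1) and log2 ratio, over only 2 libraries. Nearest to Mir10a were Mir490 (distance 0.29), Mir669o (0.45), which shares sequence with 56 other genes and is uncertain, and Mir1198 (0.46). Nearest to Mir10b was Mir429 of the epithelial list (0.18), with 69.3 CPM in replicate 1 and 21.3 CPM in replicate 2, followed by Mir3547 (0.61) and Mir26a-2 (0.61), which shares sequence and is uncertain. Nearest to Mir615 were Mir3058 (0.21), Mir6971 (0.22) and Mir7059 (0.31). A likeness over 2 libraries is a description of level and direction and nothing more.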

How the data were processed

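Raw counts of reads for each microRNA gene were deposited by the authors, in 3 columns. The files have no header, and from the values the columns were read as both strands together, the strand of the gene, and its opposite; the second of these was used. Assembly mm10 and annotation M21 come from text notes deposited with the libraries. The sources used here do not give the aligner, counter or trimming. All 2202 gene IDs matched GENCODE M21. The 4 rows that name no gene, 64.8% of reads in replicate 1 and 67.0% in replicate 2, were left out. From the counts, CPM, exact intervals, TMM factors and the common dispersion (edgeR 4.0.16, R 4.3.3) and size factors (DESeq2 1.42.0) were computed. For each gene with 10 or more reads in each library, the 2 counts were set against the TMM-scaled totals in an exact binomial test (two-sided); p-values were adjusted by Benjamini-Hochberg over 389 genes, with a threshold of 0.05. With 1 group, a quasi-likelihood test has no contrast. A gene was called shared if 20 bases of its hairpin occur in another microRNA gene. Members and marker lists were chosen with earlier results of these data known. Named genes are the members, the highest or absent genes of each list, other hairpins inside Hox clusters, and the 3 detected genes nearest each detected member. The list named after microglia also held Mir142hg, which is not a counted microRNA gene. The alternatives were the count column, library size, minimum count, scaling, test and single libraries; the GC and depth comparisons were added after the data were seen.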

Additional observations from a re-analysis of the deposited data

How the results depend on the processing

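The number of detected members depended on the minimum count: 3 at 10 reads in both libraries, 5 at 1 read in both, 6 at 1 read in either and 1 at 100 reads in both. As a percent of all reads in place of assigned reads, the members' summed share was 0.00613%, against 0.0178% ± 0.0073 of assigned reads, since the larger denominator holds the reads that name no gene. The edgeR exact test, planned as an alternative, called 2 genes in place of 263 and neither miR-10 gene, while 23 genes had an unadjusted p under 0.05. Its dispersion was estimated from the same 2 libraries that it compared, so it takes their differences as spread and calls fewer genes. Genes far beyond that spread were still called, and the miR-10 genes did not lie beyond it. With 1 library on each side, it cannot decide whether the miR-10 genes differ between animals. Scaling by library totals called 261 of 389 genes, and DESeq2 size factors called 271 of 389. The count column without strand called 244 of 364. Testing every gene with at least 1 read called 283 of 756, a smaller share than the 67.6% of the main test. Under those 4 settings Mir10a and Mir10b kept their direction and call, with log2 ratios from 0.66 to 0.81 and from 1.52 to 1.67, and Mir615 stayed above 0 and uncalled. Relative to genes within 2-fold in reads, the ratios were 0.90, 1.76 and 0.68. With 1 library left out in turn, 3 or 4 members had at least 10 reads and the summed share was 0.0127% or 0.0229%. The Mir10a share of the pair differed by 10.8 points with the unstranded column, against 10.9. Reads that fit several places limit Mir196a-1 and Mir196a-2, and counts of 16 or fewer limit all members but the miR-10 genes.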
